A study of Mus musculus with 13 samples.

Results

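The Kupffer cell and myeloid genes are 39 genes that mark the macrophages of the mouse liver or are shared by myeloid cells at large. They were selected on their symbols with the fold changes that the authors had computed for these livers in view, and those fold changes are neither used nor repeated here. Of the 39 genes, 38 are among the 11779 genes of the deposited liver table. Itgam, the integrin alpha chain known as CD11b, is not listed and has no value here. The listed members fall into 6 resident Kupffer genes, 25 pan-myeloid genes and 7 genes that other liver cells also express.

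The livers came from Balb/c mice 5 days after injection of antisense oligonucleotides (ASOs), short strands that pair with an RNA and direct its cleavage. All ASOs carried GalNAc, a sugar that hepatocytes take up through the asialoglycoprotein receptor. In the LL35 ASO group, 3 mice received a mix of 5 ASOs against LL35, a long non-coding RNA also named Falcor. The number 5 is that of the study's text, while its supplementary list of ASOs for mice names 4 against LL35. The dose was 150 mg/kg, which the labels give for each ASO and the methods of the study for the whole mix. In the Luc ASO group, 3 mice received an ASO against firefly luciferase, for which the mouse has no gene. The series also holds 7 libraries of AML12, a normal mouse hepatocyte line, collected 2 days after transfection with LL35 ASOs (4 libraries) or Luc ASO (3 libraries), which were not analysed here. Age and sex are not given in the labels.

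For each gene the liver table gives 1 mean normalized count, averaged over the compared liver libraries of both groups. It gives no value for a single mouse, so no standard deviation can be set beside a level, no difference between LL35 ASO and Luc ASO livers was computed, and no test was made. Each value below is the authors' mean, which describes livers with and without LL35 knockdown together. The lowest mean listed is 15.6 and the median of all listed genes is 234.7. Longer transcripts yield more fragments, so ratios between genes are taken per kilobase (kb) of exon unless another scale is named, and mean counts, which are not corrected for length, are given as the reads behind a level. The median of all listed genes is 51.5 normalized counts per kb.

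Kupffer cells are the resident macrophages of the liver. They sit in the sinusoids, where they remove bacteria, dying cells and worn red cells from portal blood by way of scavenger, complement and lectin receptors. Macrophages need signalling through the CSF1 receptor to survive, and the factor PU.1, encoded by Spi1, is required for the myeloid lineage. PU.1 binds purine-rich DNA with a GGAA core. LXR alpha, encoded by Nr1h3, helps to maintain Kupffer cell identity. RNA of whole liver is mostly hepatocyte RNA, and in such bulk samples fewer cells of a type and less RNA per cell cannot be told apart.

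The promoters of the members were read for letters that PU.1 can bind, because the module is defined by a cell lineage that depends on this factor. RefSeq promoters (build GRCm38.p6, 250 bases before to 50 after the gene start) were at hand for 30 of the 38 listed members, as 37 promoters since some genes have more than 1. GAGGAAGT, on either strand, was found in 3 of these 37 promoters (8.11%), those of C1qc, Cd53 and Ctss, and in 3.20% of all 32851 promoters of the same length. GGAAGT, which lies within GAGGAAGT and was also searched on both strands, was found in 16 of the 37 (43.2%), in 23.8% of all promoters and in 28.2% of the 11980 promoters of listed genes. By group, GGAAGT was in 4 of 7 promoters of resident Kupffer genes, 12 of 24 of pan-myeloid genes and 0 of 6 of the genes shared with other liver cells. These are matches of letters in a window, not measured binding sites.

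Among the resident Kupffer genes GGAAGT was found in Clec4f, Folr2, Timd4 and Vsig4 and not in Cd5l or Marco. The following stretches lie before the gene start and show where the matched letters stand. They come from C1qc and C1qb, which are next to each other on chromosome 4, and from 3 of these resident Kupffer genes, without Folr2. Each is written 5′ to 3′ on the strand of the gene, with the matched letters in capitals. ACTTCC and ACTTCCTC are GGAAGT and GAGGAAGT read from the other strand. The C1qc stretch is chr4:136893062-136893149 (minus strand), C1qb chr4:136886208-136886293 (minus), Clec4f chr6:83656117-83656189 (minus), Vsig4 chrX:96293456-96293541 (minus) and Timd4 chr11:46810687-46810772 (plus).
C1qc: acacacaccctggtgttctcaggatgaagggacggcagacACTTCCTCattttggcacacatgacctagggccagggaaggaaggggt
C1qb: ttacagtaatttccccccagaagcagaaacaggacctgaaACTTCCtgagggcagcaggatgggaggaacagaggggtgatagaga
Clec4f: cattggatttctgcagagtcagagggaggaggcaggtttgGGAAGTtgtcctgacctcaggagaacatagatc
Vsig4: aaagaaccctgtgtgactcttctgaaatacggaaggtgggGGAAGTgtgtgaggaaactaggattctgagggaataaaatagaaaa
Timd4: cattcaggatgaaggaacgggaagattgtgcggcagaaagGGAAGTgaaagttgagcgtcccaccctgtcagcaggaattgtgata
Between the matched letters and the gene start lie 27 bases in Clec4f, 47 in C1qb, 57 in Vsig4, 66 in Timd4 and 187 in C1qc.

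Members spanned a wide range of levels. Their mean normalized counts ran from 20.0 for Aif1 to 1954 for Clec4f. Per kb they ran from 6.36 for Ly86 to 791 for Clec4f, a 124-fold range. The median over the members was 213 for the mean count and 70.1 for the level per kb. Of the 38 members, 18 lay above the median of all listed genes by mean count and 25 by level per kb. Above the 75th percentile of all listed genes lay 8 members (21.1%) by mean count and 13 (34.2%) by level per kb. Together the members held 0.134% of the summed mean normalized counts of the table, while albumin (Alb) alone held 10.8%. Within the module, the 5 highest members by mean count held 44.9% of the counts.

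**Figure D1:**
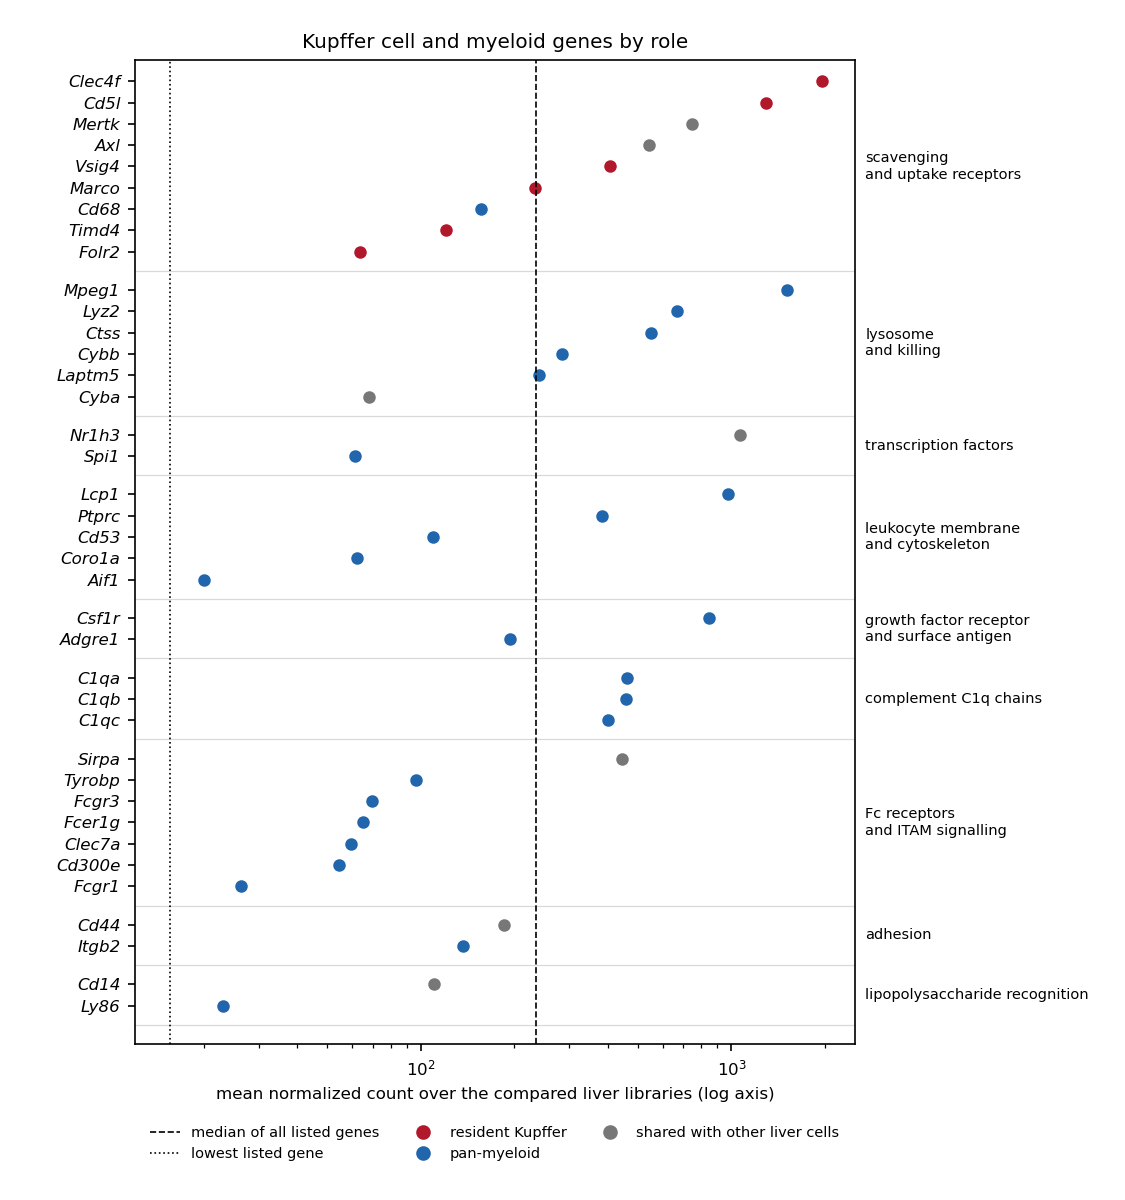
Mean normalized count over the compared liver libraries (x axis, log scale) of each listed member, grouped by role, with colours for the resident Kupffer, pan-myeloid and shared genes; the dashed line is the median of all listed genes (234.7) and the dotted line the lowest listed gene (15.6). Clec4f, Mpeg1 and Cd5l have the largest mean counts, which are not corrected for length, and Fcgr1, Ly86 and Aif1 the smallest, close to the lowest listed gene.

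The 6 resident Kupffer genes all encode receptors or secreted proteins of uptake. Clec4f, a lectin restricted to Kupffer cells in the mouse, had a mean normalized count of 1954 and, at 791 per kb, the highest level per kb of the module, above that of 95.5% of listed genes. Cd5l, a secreted scavenger receptor protein of tissue macrophages also known as AIM, followed with a count of 1288 and 632 per kb. Vsig4, the complement receptor that captures C3b-coated particles, had a count of 408 and 275 per kb. The lower members of the group were Marco, a scavenger receptor for bacteria, with a count of 232 and 121 per kb, and Timd4, a receptor for phosphatidylserine on dying cells, with 120.3 and 55.4 per kb. Folr2, the folate receptor beta, was lowest at 63.5 and 41.1 per kb. The group thus spanned a 19.3-fold range of levels per kb from Clec4f to Folr2, and 5 of its 6 genes lay above the median of all listed genes per kb. On 63.1% of its exon bases Folr2 is overlapped by Gm10602, a gene on the opposite strand. The libraries kept strand, but which strand setting was used in counting is not given in the sources used here.

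The resident Kupffer genes had a higher median level than the pan-myeloid genes. It was 198 per kb against 62.9 per kb for the 25 listed pan-myeloid genes, a ratio of 3.14. The groups overlapped over much of their range, from 41.1 to 791 per kb for the resident and from 6.36 to 507 per kb for the pan-myeloid genes. Genes are not replicates, so the ratio is a description of these lists. It fell to 2.05 without division by length and to 1.91 per kb of coding sequence, and rose to 5.05 with the C1q chains counted as resident. It also rests on few genes, since leaving out Clec4f, Cd5l or Vsig4 brought it to 1.92, and leaving out Marco, Timd4 or Folr2 to 4.37. All these values lie above 1. No setting counted as resident the 8 other Kupffer cell genes looked up below, whose median was 75.3 per kb. The 7 members that other liver cells also express had a median of 90.1 per kb, between the medians of the groups. They ran from 27.4 to 425 per kb. By mean count their median (443) lay above those of the resident (320) and pan-myeloid (156) genes, so this placement depends on length.

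**Figure D2:**
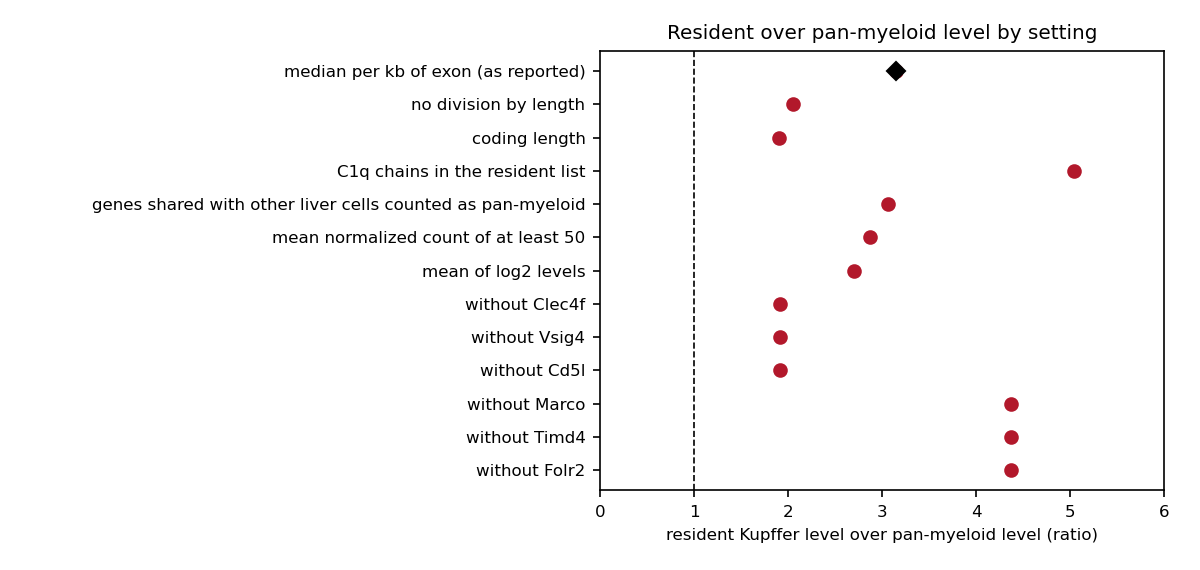
Ratio of the median level of the 6 resident Kupffer genes to that of the pan-myeloid genes (x axis, linear) as reported (black diamond, 3.14) and under each other setting (red points); the dashed line marks equal levels. Every point lies to the right of the line, from 1.91 with coding length to 5.05 with the C1q chains counted as resident.

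Genes of complement C1q were among the highest of the pan-myeloid genes. C1qa, C1qb and C1qc encode the chains of C1q, the recognition part of the first complement component, which macrophages secrete and which is built from equal numbers of each chain. Their mean normalized counts were 460.1, 457 and 399.8. Per kb of exon C1qa stood at 442, C1qb at 420.1 and C1qc at 207. C1qa and C1qb differed by a ratio of 1.05 on this scale. C1qa was 2.14 times C1qc per kb of exon, but 1.15 times without division by length and 1.16 times per kb of coding sequence, because the annotated exons of C1qc, at 1.93 kb, are longer than the 1.04 kb of C1qa. The proteases that join C1q in the C1 complex are made largely by hepatocytes, and stood at 332 per kb for C1ra and 993 per kb for C1s1. Downstream, C4b (2292 per kb) and C3 (23470 per kb) were far above the C1q chains, and C2 stood at 85.1 per kb and C1rb at 14.5 per kb. All 6 partner genes of C1q were listed.

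Lysosomal and killing genes held 3 of the 5 highest pan-myeloid levels per kb. Lyz2, the macrophage lysozyme, had a mean normalized count of 667 and the top level of the pan-myeloid group, 507 per kb. Its sequence is close to that of Lyz1, so reads common to both could have been lost in counting. Ctss, cathepsin S, a protease that cleaves the invariant chain during antigen presentation, had a count of 549 and 404 per kb. Mpeg1, perforin-2, a pore-forming protein that acts on engulfed bacteria, had a count of 1508 and 348 per kb. Laptm5, a lysosomal membrane protein of blood cells, stood at 63.3 per kb.

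The NADPH oxidase of phagocytes makes superoxide with a membrane pair of subunits and cytosolic activators. Cybb, the catalytic subunit gp91phox, had a mean normalized count of 284 and 49.0 per kb, and its partner Cyba, p22phox, which other cells express too, 68.3 and 65.7 per kb. The membrane pair thus differed by a ratio of 1.34 per kb. By mean count Cyba was 0.240 times Cybb, and per kb of coding sequence Cybb (166) also lay above Cyba (119). The order of the pair therefore depends on length. The cytosolic activators were lower, with Ncf1 at 20.8, Rac2 at 20.5 and Ncf4 at 13.2 per kb. Each of these 3 stood below the level per kb of either membrane subunit. By mean count Rac2 and Ncf4 stayed below both subunits, but Cyba was 0.898 times Ncf1, so the order of Cyba and Ncf1 depends on length.

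Of the 7 members of Fc receptors and of signalling through ITAM motifs, 6 had mean counts below the median of all listed genes. ITAM motifs are tyrosine motifs that recruit the kinase Syk. Per kb, Tyrobp, Fcer1g and Sirpa lay above the median of all listed genes (51.5), so this placement depends on length. The adaptors stood above the activating receptors per kb: Tyrobp (DAP12) had a mean normalized count of 96.4 and 145 per kb, and Fcer1g, the common Fc receptor gamma chain, 65.1 and 74.4 per kb. Receptors that signal through these or a similar motif were lower. Fcgr3, a low-affinity IgG receptor, stood at 39.9 per kb, Cd300e at 26.0, Clec7a (dectin-1, the receptor for beta-glucan) at 22.6 and Fcgr1, the high-affinity IgG receptor, at 10.2 per kb. Fcer1g was thus 1.86 times Fcgr3 and 7.29 times Fcgr1 per kb. By mean count it was 0.938 times Fcgr3 (69.3) and 2.46 times Fcgr1, so the order of Fcer1g and Fcgr3 depends on length. The inhibitory receptor Fcgr2b, which liver sinusoidal endothelium expresses strongly, stood at 126 per kb, 3.16 times Fcgr3, and Fcgr4 at 23.6 per kb. Fcgr2b and Fcgr3 share stretches of near-identical sequence, so their counts are uncertain to the extent that reads could not be placed. Among the kinases, Lyn stood at 101.7 per kb and Syk at 23.7. Sirpa, an inhibitory receptor that reads CD47 as a signal not to engulf, had a count of 443 and 90.1 per kb, and Cd47, which most cells carry, stood at 327 per kb.

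The receptor for CSF1 and the surface antigen F4/80 are the classical marks of mouse macrophages. Csf1r had a mean normalized count of 845 and 146 per kb, and Adgre1, which encodes F4/80, 194 and 59.9 per kb. On 15.1% of its exon bases Csf1r is overlapped by Hmgxb3 on the opposite strand. Both ligands of the receptor were listed below it, Csf1 at 32.1 and Il34 at 13.8 per kb. Csf1r was 4.56 times Csf1. Clec4f was 13.2 times Adgre1 per kb, so the macrophage genes differed widely in level within the same tissue.

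Of the listed receptors for dying cells that act through Gas6 and protein S, Mertk stood near these ligands per kb and Axl below them. By mean count Axl lay between Gas6 (438) and Pros1 (760). Mertk had a mean normalized count of 749 and 173 per kb, and Axl 541 and 107.5 per kb, while Gas6 stood at 172 and Pros1 at 186 per kb. Tyro3, the other receptor of this family, was not listed. Mertk and Axl are also found on other liver cells, and Pros1 is secreted by hepatocytes. Cd68, a glycoprotein of late endosomes used to stain macrophages, had a count of 156 and 124 per kb. It was 2.07 times Adgre1 per kb, but 0.805 times by mean count.

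The genes that recognise lipopolysaccharide differed widely in level. Cd14, which hands lipopolysaccharide to TLR4, had a mean normalized count of 109.8 and 63.4 per kb. Tlr4 stood at 16.0 and its partner Ly96 (MD-2) at 19.1 per kb. Cd14 was 3.95 times Tlr4 per kb, but 1.23 times by mean count, where Tlr4 had 89.1. Ly96 had a mean count of only 19.5, so the order of Tlr4 and Ly96 depends on length. Ly86 (MD-1), with a count of 23.1, had the lowest level per kb of the module, 6.36, and its partner Cd180 was lower still at 3.55 per kb. Cd180 had a mean count of 16.0, and the lowest mean in the table is 15.6. Lbp, which hepatocytes secrete into plasma, stood at 409 per kb.

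The beta-2 integrins pair a common beta chain with 1 of several alpha chains. Itgb2, the beta chain, had a mean normalized count of 136 and 44.7 per kb. Itgal, the alpha chain of LFA-1, was the only listed alpha chain of the 4 looked up and stood at 41.8 per kb. The ratio of beta to alpha chain was 1.07 per kb, but 0.497 by mean count, where Itgal had 275. Itgam, Itgax and Itgad were not listed. Being unlisted does not give a level, since why a gene is not listed was not tested. Cd44, a receptor for hyaluronan on many cells, had a count of 185 and 27.4 per kb.

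The 2 transcription factors of the module were far apart. Nr1h3 had a mean normalized count of 1069 and 425 per kb, and Spi1 61.4 and 22.8 per kb, a ratio of 18.7. Hepatocytes also express Nr1h3, as LXR alpha controls their lipid synthesis, so the level is not that of macrophages alone. Of 5 other regulators known in Kupffer cells all were listed. Per kb, Id3 (189), Maf (147) and Id1 (142) stood above the median of all listed genes. Irf8 (19.2 per kb) and Spic (9.21 per kb), a PU.1 relative of red pulp and bone marrow macrophages, stood below it. By mean count Id1 (165) also lay below the median of all listed genes (234.7) and near Irf8 (135). The distance between Id1 and Irf8 therefore depends on length. Several of these regulators are expressed in other liver cells as well.

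**Figure D3:**
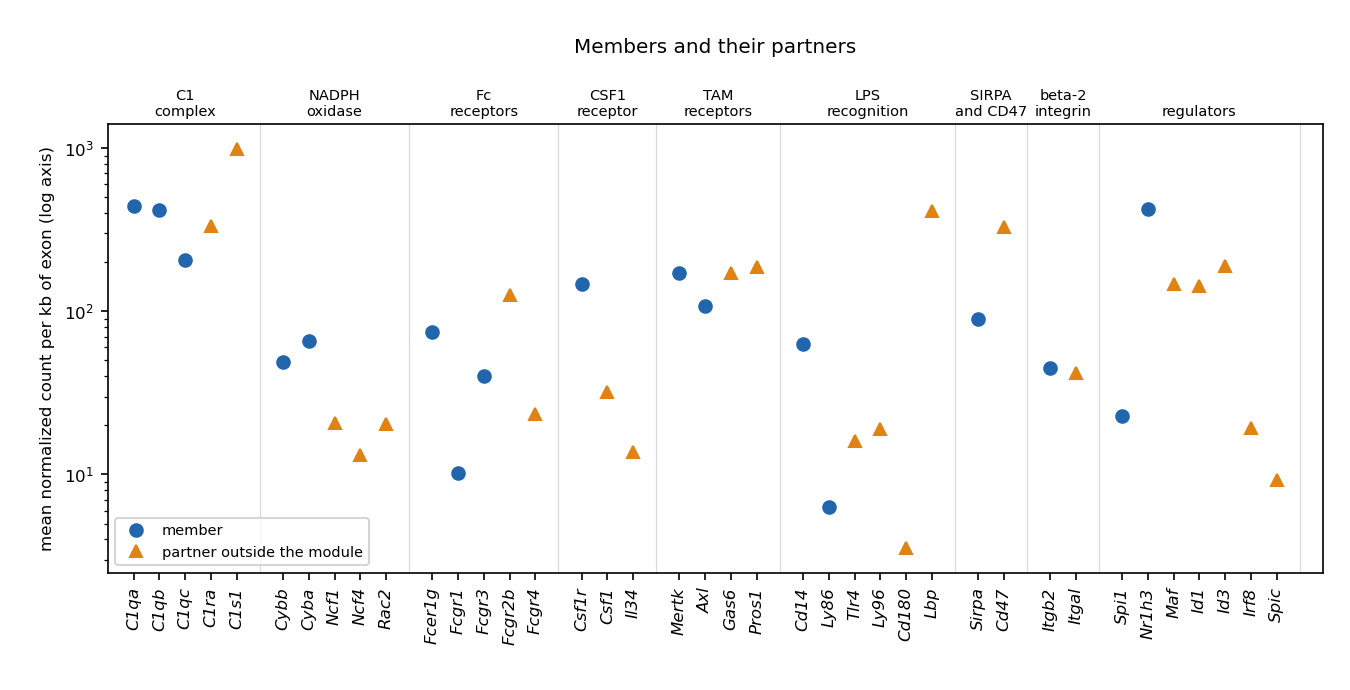
Mean normalized count per kb of exon (y axis, log scale) of members (blue circles) and of partner genes outside the module (orange triangles), grouped by complex or pathway. The C1q chains lie from 207 to 442 per kb and the membrane subunits of the NADPH oxidase at 49.0 and 65.7, above the cytosolic activators shown, at 13.2 to 20.8; Nr1h3 (425) and Spi1 (22.8) stand far apart.

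Among the genes of the leukocyte membrane and cytoskeleton, Lcp1 and Ptprc stood lower in the order of listed genes per kb than by count. Lcp1, the actin bundler L-plastin, had a mean normalized count of 978, but 103 per kb over 9.50 kb of annotated exon. Ptprc, the phosphatase CD45 that all leukocytes carry, had a count of 384 and only 21.0 per kb over 18.3 kb of exon. The remaining genes were Cd53, a tetraspanin, at 62.9 per kb, Coro1a, an actin regulator, at 22.4 and Aif1 (IBA1), at 13.0 per kb. Aif1 had the lowest mean count of the module, 20.0, which is 1.28 times the lowest in the table.

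Markers of the cells of the liver were then looked up in the table. All 10 hepatocyte genes were listed, with a median of 19551 per kb, 98.9 times that of the resident Kupffer genes. Markers of the labelled tissue thus stood near the top of the table. Of 8 other genes known in Kupffer cells all were listed, with a median of 75.3 per kb: Slc40a1, the iron exporter ferroportin, led at 413 per kb, followed by Hmox1, heme oxygenase 1, at 258 and Mrc1, the mannose receptor, at 217. Cd163, the hemoglobin scavenger receptor, stood at 41.1 and Clec1b at 32.8 per kb. Slc40a1, Hmox1 and Mrc1 are also expressed by other liver cells.

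Sinusoidal endothelial and stellate cells are the other non-parenchymal cells whose markers were listed in full, 10 of 10 each. Their medians per kb were 127 and 47.9, which are 0.642 and 0.242 times the resident Kupffer median. Without division by length both orders turned, with ratios of 1.77 for endothelial and 1.05 for stellate genes, since several of their markers, such as Stab2 and Reln, are long. No order between these cell types is therefore read from the lists. Clec4f, at 791 per kb, lay above Stab2 (248 per kb) and above each of the 20 listed markers of both cell types, whose highest was Ecm1 at 413 per kb. This order too depends on length, as the mean count of Stab2 (2171) was 1.11 times that of Clec4f (1954).

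Few markers of recruited or circulating leukocytes were listed. Of 8 genes of monocytes and recruited macrophages 3 were listed, Ccr2 at 3.40, Gpnmb at 3.10 and Plac8 at 40.1 per kb, while Ly6c2, Cx3cr1, Chil3, Trem2 and Itgax were not. Among neutrophil genes 3 of 6 were listed, S100a8 at 33.1, S100a9 at 35.9 and Csf3r at 12.7 per kb, and Ly6g was not. S100a8 and S100a9, short genes with mean counts of 23.0 and 18.8, thus stood per kb below Folr2 (41.1) and above Clec7a (22.6). The lists of lymphoid and dendritic cells gave Cd3e (4.56 per kb) and Il2rb (10.8) of 7 T and NK cell genes, Ighm (26.6) of 5 B cell genes and Clec9a (13.8 per kb) of 6 dendritic cell genes. The cholangiocyte list gave Sox9 (9.94 per kb) of 4. Pan-myeloid members such as Ptprc, Coro1a, Itgb2 and Cd53 are expressed by all these leukocytes, and how much of their level came from cells other than macrophages was not tested.

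**Figure D4:**
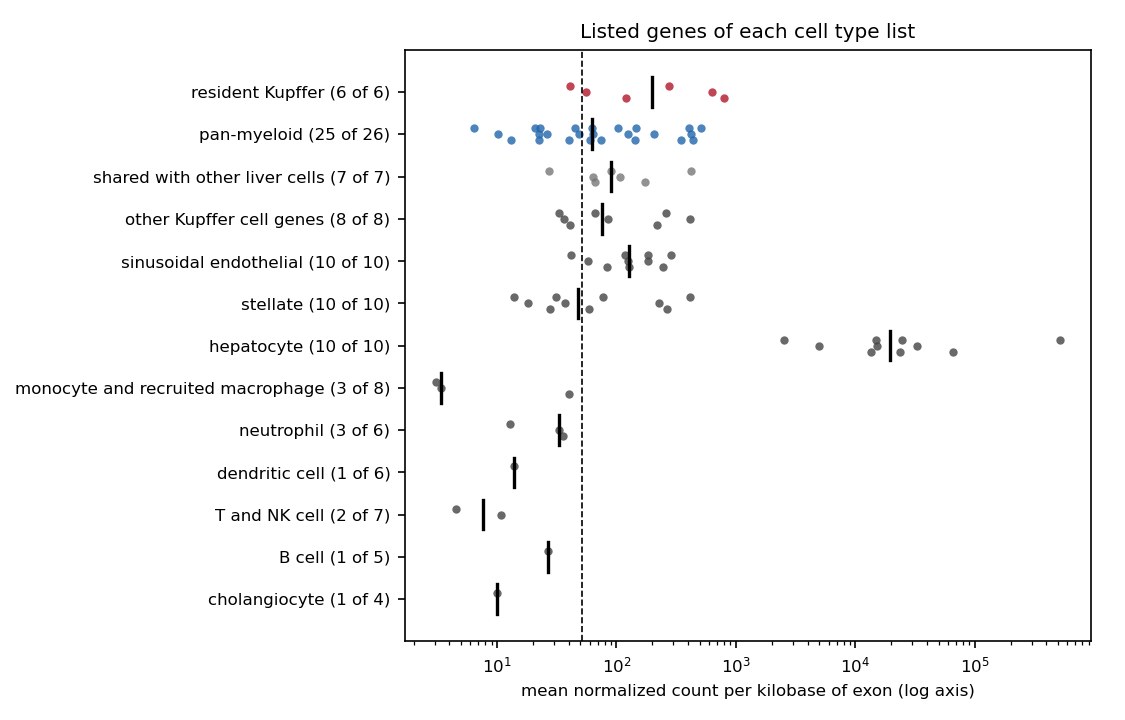
Mean normalized count per kb of exon (x axis, log scale) of the listed genes in each cell type list, with the number listed of all in the list; each point is a gene, the black bar is the median of the list and the dashed line the median of all listed genes (51.5 per kb). The resident Kupffer genes have a median of 198 per kb, hepatocyte genes lie far to the right at 19551, and the leukocyte lists hold few listed genes.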

How the data were processed

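RNA of 6 Balb/c livers was sequenced by the authors after rRNA depletion with a directional kit. According to the methods and the submitters' processing notes, the authors aligned reads with STAR 2.5.3a, counted them per Ensembl gene and normalized them with the RLE method of DESeq2. The genome build is not given in the sources used here. The deposited liver table holds for each gene a mean normalized count, a signal averaged over the compared libraries, which was used here. Its other columns hold the authors' own comparison (log2 fold change, standard error, test statistic, p-value and adjusted p-value) and were not used. Counts per mouse were not analysed here, so the depth of each sample, and the precision it gives, is unknown.

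Members were matched by symbol. Their choice and the gene lists were made with earlier results of these data known. Levels per kb divide the mean by the union of annotated exons in GENCODE M21 (GRCm38), found for 11754 of 11779 genes by Ensembl identifier. This length counts every annotated exon, so a gene with long, little used exons appears lower. Some partner genes are not reported here. Every listed member is named, with partners and cell type lists by count and value. Promoter sequences came from RefSeq (GRCm38.p6). The bases after the start were found in a transcript of the gene for 29 of the 37 member promoters, none reverse complemented. Calculations used Python 3 with pandas and numpy and were tested on simulated data. No test between groups was made.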

Additional observations from a re-analysis of the deposited data

How the results depend on the processing

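No spread between mice was at hand, so a value was taken to have moved when it changed by over 1.5 times. The ratio of resident Kupffer to pan-myeloid level (3.14) moved to 2.05 without division by length, 1.91 with coding length and 5.05 with the C1q chains in the resident list, and stayed within 1.5 times with the shared genes counted as pan-myeloid, a minimum mean normalized count of 50 or a mean of log2 levels. Leaving out Clec4f, Vsig4 or Cd5l gave 1.92, an alternative chosen after seeing the data. The number of members above the 75th percentile of listed genes was 8 by mean count and 13 per kb. C1qa over C1qc (2.14) moved to 1.15 without division by length and 1.16 with coding length. Endothelial over resident Kupffer level (0.642) reversed to 1.77 and stellate over resident (0.242) to 1.05 without division by length, and stellate over resident moved to 0.582 with coding length. The other Kupffer cell genes over the resident genes (0.381) moved to 0.863 without division by length and 0.970 with coding length. The share of member promoters with the PU.1 letters (8.11%) moved to 43.2% with GGAAGT and to 2.70% with only the 250 bases before the start, where GAGGAAGT is in 2.44% of all promoters. Levels rest on means whose error is unknown, and exon length sets much of the order between genes. No paired analysis was made, since the labels name no pairs of mice and no values for single mice were at hand.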
